A study of Mus musculus with 9 samples.

Results

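The metaplasia genes described here are 9 genes used as markers of spasmolytic polypeptide-expressing metaplasia (SPEM): Clu, Wfdc2, Dmbt1, Olfm4, Cftr, Aqp5, Slc7a11, Cd44 and Gpx2. They were taken from a named list, and every probe set that the platform annotation pairs with exactly 1 gene, that gene being a member, was used, which gave 17 probe sets for the 9 genes, of 18193 genes with such a probe set in all. The 9 arrays held RNA of C57BL/6 mouse stomach cells, 1 array per sample. The isthmus group was 3 samples of corpus cells positive for Mist1 and the red reporter Tomato, taken after Lgr5+ cells had been ablated. The parietal group was 3 samples of gastric parietal cells, the acid-secreting cells. The chief group was 3 samples of corpus cells with the same Mist1 and Tomato labels and no ablation. The Mist1+ cells of the isthmus and chief groups were flow sorted, while the sources used here do not state the means of ablation, how parietal cells were collected, the allele that drives Tomato, the age of the mice or any pooling of animals.

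SPEM is a change of the stomach corpus in which glands that have lost parietal cells come to hold mucous cells carrying the peptide Tff2, and both chief cells and progenitors of the isthmus have been put forward as their source. Cells of SPEM reduce their digestive enzymes and take up genes of mucous secretion, fluid transport, matrix adhesion and redox defence. The 9 genes cover these roles. Clu, Wfdc2, Dmbt1 and Olfm4 encode secreted proteins, Cftr, Aqp5 and Slc7a11 encode membrane transport proteins, Cd44 encodes the cell surface receptor for hyaluronan, and Gpx2 encodes a glutathione peroxidase of epithelia.

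Array medians, used here as a stand-in for background, lay at 5.92 to 6.32 log2 on the isthmus arrays, 5.80 to 5.86 on the parietal arrays and 6.38 to 6.70 on the chief arrays. A probe set was tested when it lay above its array's median on at least 3 of the 9 arrays, and 13 of the 17 member probe sets, from 8 of the 9 genes, met this. Both Slc7a11 probe sets and 2 of the 4 Cd44 probe sets did not. Both tested probe sets of Cftr and both of Cd44 passed through the Mist1+ arrays alone, so that a low parietal level was built into their selection. The Olfm4 probe set passed through the parietal and isthmus arrays alone, which built in a low chief level. Counts over the tested members are therefore given as descriptions. The labelled cells were checked against markers. The parietal markers Atp4a and Slc26a7 were at 14.03 to 14.32 and 11.68 to 12.06 log2 on the parietal arrays. Atp4a was at 12.09 to 13.75 on the isthmus and chief arrays too, while Slc26a7 was below the array median on all of them. The chief markers Pgc and Cblif were at 14.63 to 14.92 and 14.28 to 14.79 on the chief arrays, but Pgc was also at 13.73 to 14.09 on the isthmus arrays and 12.92 to 13.45 on the parietal arrays. On the isthmus arrays Bhlha15, the gene of Mist1, was at 1.34 to 7.36, with 2 of the 3 arrays below their medians, although these cells carry the Mist1+ label. Chief replicate 3 stood apart in connective tissue genes. The 7 fibroblast markers summed to 14.66 log2 there, against 7.45 and 8.70 on the other chief arrays, 6.35 to 7.40 on the isthmus arrays and 7.22 to 8.48 on the parietal arrays. On chief replicate 3 itself 3 of the 7, Dcn, Lum and Pdgfra, were not above the array median.

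No member probe set passed the test between the isthmus and chief groups, while most tested members differed between the parietal group and either Mist1+ group. Between isthmus and chief arrays, 0 of the 13 tested probe sets were called by limma at an adjusted p under 0.05, where 1.12% of all 21393 tested probe sets were and 0.234% were higher, and 5 of the 13 had an unadjusted p under 0.05, against 15.6% of all. The arrays of these 2 groups did not overlap for 5 of the 13, 4 of them the Clu probe sets, against 19.5% of all, and 1 of the 13 was higher without overlap, against 9.29% of all. Between parietal and chief arrays 10 of the 13 fell and 1, Olfm4, rose, where 19.9% of all tested probe sets were called and 11.2% fell. The arrays did not overlap for 11 of the 13, 10 of them lower, against 36.5% of all and 20% lower. Between isthmus and parietal arrays 11 of the 13 rose and 0 fell, where 22.5% of all were called, 12.4% rose and 10.1% fell. The arrays did not overlap for 12 of the 13, 11 of them higher, against 40.2% of all and 21.6% higher. The 3 comparisons share their arrays in pairs and are not independent of each other. Nor are the probe sets of 1 gene, such as the 4 of Clu. In a fit by the brightest probe set of each gene, 6 of 8 members fell and 1 rose between parietal and chief arrays, where 1500 of 11053 genes fell. Of the 8, 6 rose and 0 fell between isthmus and parietal arrays, where 1696 genes rose. Clu fell between isthmus and chief arrays, where 137 genes fell. In the main fit 1 of the 8 had an unadjusted p under 0.05 there.

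With no filter, all 17 member probe sets entered the fit. Between isthmus and chief arrays 0 of 17 were then called, against 0.341% of 34945 probe sets. Between parietal and chief arrays 10 of 17 fell and 1 rose, where 6.45% of all fell and 4.63% rose. Between isthmus and parietal arrays 12 of 17 rose and 0 fell, where 6.95% of all rose. The median difference over the 17 was 1.02 log2 between isthmus and chief arrays, -2.88 between parietal and chief and 4.05 between isthmus and parietal, against -0.10, -0.23 and 0.07 over all probe sets. In bulk RNA of this kind, fewer cells of a type and less RNA per cell cannot be told apart.

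**Figure D1:**
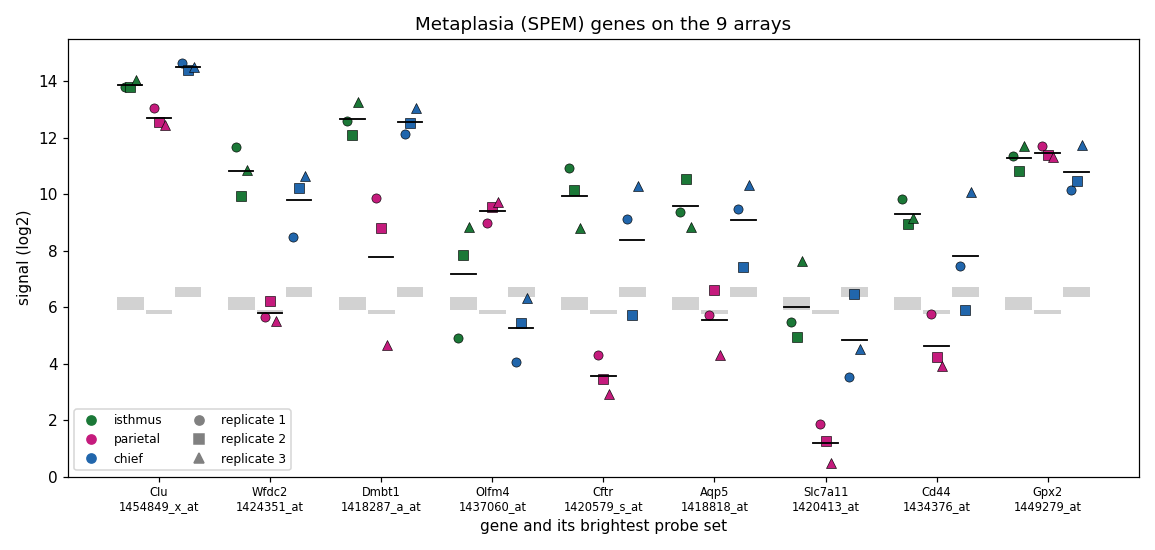
Signal in log2 units (vertical axis) of the brightest probe set of each of the 9 genes on the isthmus, parietal and chief arrays, with a point per array, its shape giving the replicate, and a black bar at the group mean. Grey bands span the array medians of each group. Parietal points lie lowest for Clu, Wfdc2, Dmbt1, Cftr, Aqp5, Slc7a11 and Cd44, and highest for Olfm4.

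**Figure D2:**
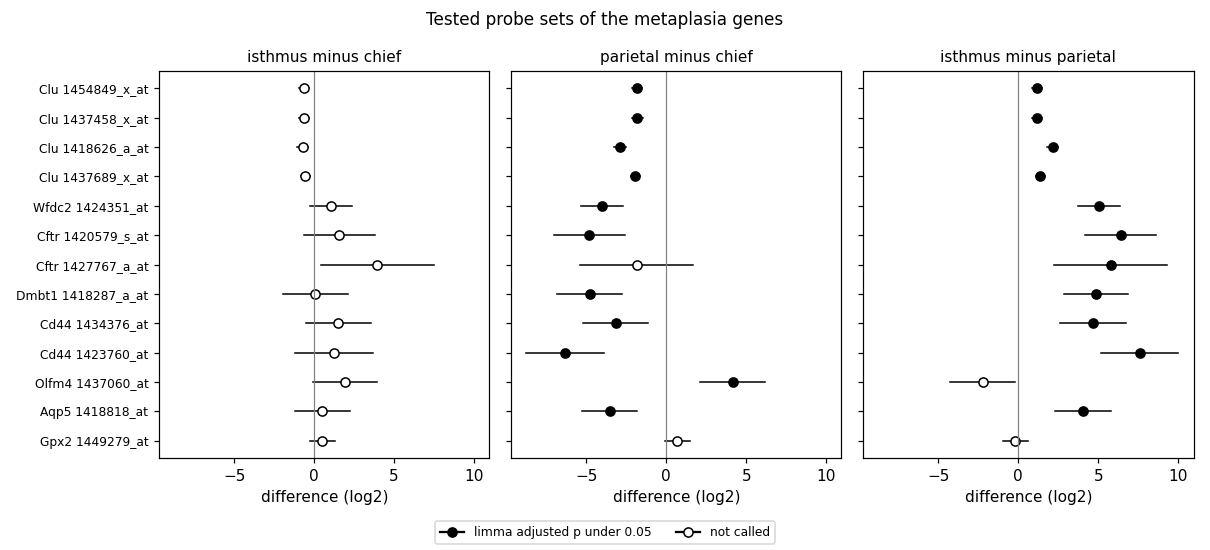
Difference of group means in log2 units (horizontal axis) with its 95% confidence interval from limma for the 13 tested probe sets, in the 3 comparisons. Filled points passed the adjusted p threshold. In the isthmus minus chief panel no point is filled, and in the parietal minus chief panel Olfm4 is the filled point right of 0.

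Clu, clusterin, is a secreted chaperone that is bright in injured and regenerating epithelia. Its 4 probe sets gave the same order of groups. The probe set 1454849_x_at was at 13.78, 13.80 and 14.03 log2 on the isthmus arrays, 13.05, 12.54 and 12.46 on the parietal arrays, and 14.63, 14.38 and 14.52 on the chief arrays. No 2 groups overlapped. The parietal mean was 3.55-fold below the chief mean (limma adjusted p = 4.47e-06) and the isthmus mean 2.28-fold above the parietal mean (limma adjusted p = 9.08e-05). By the probe set 1418626_a_at, which was at 11.87, 11.67 and 11.09 on the parietal arrays and 14.43, 14.38 and 14.45 on the chief arrays, the difference was -2.88 log2 (limma adjusted p = 3.44e-07). The x_at suffix marks probe sets some of whose probes can bind related transcripts, and the 3 x_at sets gave smaller differences of -1.83, -1.80 and -1.94. A link between the suffix and the size of the difference was not tested.

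Between isthmus and chief arrays all 4 Clu probe sets were lower in the isthmus samples without overlap, with differences of -0.57 to -0.72 log2, and none passed the threshold in the fit over all probe sets (limma adjusted p = 0.0507, 0.0581, 0.0585 and 0.0639). For 1454849_x_at the difference was -0.64 with a 95% confidence interval of -0.95 to -0.33. It passed when each gene was represented by its brightest probe set (limma adjusted p = 0.0455) and when only these 2 groups were fitted (limma adjusted p = 0.0221), within a range of 0.0187 to 0.792 over all alternatives. Leaving out parietal replicate 1, which enters only through the shared spread, gave limma adjusted p = 0.0187. After quantile normalization the difference was -0.09. Array medians were 0.38 log2 lower on the isthmus than on the chief arrays, and with each array centred on its median the difference was -0.26. Surface pit and chief cell markers were lower in the same comparison. Of the pit markers 4 of 5 fell, with differences of -0.66 log2 for Gkn1, -0.63 for Gkn2, -0.58 for Tff1 and -0.72 for Psca. Of the tested chief markers 5 of 7 fell, Gper1 at -6.02, Cblif at -2.89, Xbp1 and Clps at -1.08 and Pgc at -0.90. In this comparison 0.888% of all tested probe sets fell. Their part in the Clu difference was not tested.

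Wfdc2, a secreted protein with whey acidic protein domains also known as HE4, was at 11.67, 9.92 and 10.84 log2 on the isthmus arrays, 5.66, 6.20 and 5.50 on the parietal arrays, and 8.50, 10.21 and 10.65 on the chief arrays. The parietal values lay around their array medians and below every Mist1+ array, while isthmus and chief values overlapped. It was at least 14.1-fold lower in the parietal than in the chief samples (limma adjusted p = 0.000559) and at least 28.6-fold higher in the isthmus than in the parietal samples (limma adjusted p = 9.38e-05), each bound setting a dim array to its median. Leaving out single arrays gave -4.64 to -3.57 log2 for parietal minus chief. The isthmus minus chief difference of 1.02 log2 had an interval of -0.29 to 2.34 (limma adjusted p = 0.454).

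Dmbt1, a scavenger receptor cysteine-rich glycoprotein of mucosal defence, was at 12.59, 12.09 and 13.28 log2 on the isthmus arrays, 9.88, 8.80 and 4.66 on the parietal arrays, and 12.13, 12.53 and 13.06 on the chief arrays. The parietal arrays were the lowest and the most spread, with replicate 3 below its median (7.78 ± 2.76 log2 over the parietal arrays, SD, n = 3). Dmbt1 was at least 21.0-fold lower in the parietal than in the chief samples (limma adjusted p = 0.00289), with -5.84 to -3.23 log2 when single arrays were left out, the smallest size without parietal replicate 3. Isthmus and chief means, 12.65 ± 0.60 and 12.57 ± 0.47 log2 (SD, n = 3 each), differed by 0.08 with an interval of -1.93 to 2.09.

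Olfm4, olfactomedin 4, is a secreted glycoprotein that marks stem cells in human intestine and is also made by neutrophils. It ran against the other secreted members. It was at 4.91, 7.84 and 8.82 log2 on the isthmus arrays, 8.97, 9.54 and 9.72 on the parietal arrays, and 4.07, 5.42 and 6.32 on the chief arrays, all 3 chief values being below their array medians. The parietal arrays were highest with no overlap with either other group, and the isthmus arrays overlapped the chief arrays. Olfm4 was at least 7.36-fold higher in the parietal than in the chief samples (limma adjusted p = 0.00734), with 3.54 to 4.67 log2 when single arrays were left out. Its probe set passed the filter through the parietal and isthmus arrays alone, so that a low chief level was built into its selection. In the fit with no filter the difference was 4.14 log2 and was called (limma adjusted p = 0.0121). The isthmus minus parietal difference of -2.22 log2 was not called (limma adjusted p = 0.109) except with each array centred on its median (-2.54, limma adjusted p = 0.0486, range 0.0486 to 0.377). It was -1.08 without isthmus replicate 1 and -3.04 without isthmus replicate 3. Of 5 neutrophil markers, 4 were above the array median on none of the 9 arrays, and the exception, S100a8, exceeded it on chief replicate 3 alone, at 8.36 log2. Of 7 leukocyte markers, 6 or 7 were not above the median on each parietal array. The exception was Tyrobp, at 8.18 and 7.54 log2 on parietal replicates 2 and 3. The part of neutrophils or other leukocytes in the Olfm4 values was not tested.

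The transport proteins Cftr and Aqp5 were low on the parietal arrays. Cftr is the cyclic AMP regulated chloride and bicarbonate channel of fluid-secreting epithelia. By the probe set 1420579_s_at it was at 10.91, 10.15 and 8.80 log2 on the isthmus arrays, 4.29, 3.46 and 2.94 on the parietal arrays, and 9.12, 5.71 and 10.28 on the chief arrays. All 3 parietal values were below their array medians, as was chief replicate 2. Cftr was at least 5.79-fold lower in the parietal than in the chief samples (limma adjusted p = 0.00509) and at least 17.4-fold higher in the isthmus than in the parietal samples (limma adjusted p = 0.000658). Leaving out single arrays gave -6.14 to -3.85 log2 for parietal minus chief, the first without chief replicate 2.

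The other Cftr probe set, 1427767_a_at, was at 8.04, 8.07 and 6.73 log2 on the isthmus arrays, 3.55, 1.96 and 0.00 on the parietal arrays, and 4.51, 0.50 and 6.01 on the chief arrays. It exceeded the array median on the 3 isthmus arrays alone, which is how it passed the filter, and it was the tested member probe set whose isthmus arrays all lay above all chief arrays. The isthmus minus chief difference, at least 2.12-fold, was not called (limma adjusted p = 0.267, range 0.0688 to 0.524 over all alternatives), and the isthmus minus parietal difference, at least 3.43-fold, was (limma adjusted p = 0.0219). That call ended without isthmus replicate 1 (5.56 log2, adjusted p = 0.0829), without isthmus replicate 2 (5.55, 0.0768) and without parietal replicate 3 (4.86, 0.0697) (all alternatives, 0.0033 to 0.0829). By 1427767_a_at the parietal minus chief difference was -1.84 log2, with an interval of -5.36 to 1.69, and was not called (limma adjusted p = 0.478). The parietal and chief arrays overlapped for it, and all of them were below their medians. With the probe sets of a gene averaged, Cftr was -3.32 log2 for parietal minus chief and was not called (limma adjusted p = 0.0628), against -4.81 and an adjusted p of 0.0048 with its brightest probe set alone.

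Aqp5, a water channel of exocrine glands that marks gland base stem cells of the mouse pylorus, was at 9.37, 10.55 and 8.84 log2 on the isthmus arrays, 5.71, 6.61 and 4.30 on the parietal arrays, and 9.49, 7.43 and 10.31 on the chief arrays. Every parietal array lay below every Mist1+ array. Aqp5 was at least 7.83-fold lower in the parietal than in the chief samples (limma adjusted p = 0.00774), a call that ended without chief replicate 3 and parietal replicate 1 together (-3.0 log2, adjusted p = 0.069, range 0.00254 to 0.069), and at least 11.2-fold higher in the isthmus than in the parietal samples (limma adjusted p = 0.00289). Leaving out single arrays gave -4.36 to -2.92 log2 for parietal minus chief. The isthmus minus chief difference was 0.51 log2 with an interval of -1.23 to 2.25, and without chief replicate 2 it was -0.31.

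Slc7a11 encodes xCT, the subunit of the cystine and glutamate exchanger that supplies cystine for glutathione, and pairs with CD44 variant forms at the cell surface. Its probe set 1420413_at was at 5.49, 4.93 and 7.64 log2 on the isthmus arrays, 1.85, 1.26 and 0.47 on the parietal arrays, and 3.54, 6.45 and 4.53 on the chief arrays, above the array median on isthmus replicate 3 alone. The other, 1443536_at, was at 7.96, 4.65 and 6.36 on the isthmus arrays, 5.82, 0.00 and 3.70 on the parietal arrays, and 0.95, 0.78 and 0.21 on the chief arrays. The probe sets put the chief and parietal groups in opposite orders. In the fit with no filter 1420413_at was called higher in the isthmus than in the parietal samples (4.83 log2, limma adjusted p = 0.0109), where the lower group lay wholly below its array medians, and 1443536_at was not called between isthmus and chief (5.68 log2, limma adjusted p = 0.102).

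Cd44, the hyaluronan receptor whose variant forms appear in SPEM, had 4 probe sets, none of which is described here as specific to a variant. The brightest, 1434376_at, was at 9.83, 8.96 and 9.15 log2 on the isthmus arrays, 5.77, 4.24 and 3.92 on the parietal arrays, and 7.45, 5.89 and 10.08 on the chief arrays. The isthmus arrays lay close together and the chief arrays spread over more than 4 log2 units, with replicate 3 above every isthmus array. By this probe set Cd44 was at least 3.92-fold lower in the parietal than in the chief samples (limma adjusted p = 0.0313), a call that ended under 10 of 19 alternatives (range 0.00805 to 0.139). Among these, it was -2.03 log2 without chief replicate 3 (adjusted p = 0.139), -3.34 without chief replicate 1 (0.0547), -2.96 without parietal replicate 2 (0.0844) and -2.80 without parietal replicate 3 (0.0974).

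The Cd44 probe set 1423760_at was at 9.81, 8.40 and 8.93 log2 on the isthmus arrays, 1.37, 0.75 and 2.28 on the parietal arrays, and 5.66, 7.34 and 10.38 on the chief arrays. It was at least 3.88-fold lower in the parietal than in the chief samples (limma adjusted p = 0.00161) and at least 9.25-fold higher in the isthmus than in the parietal samples (limma adjusted p = 0.00039). This probe set passed the filter through the Mist1+ arrays alone, so that a low parietal level was built into its selection. Both calls held under the 18 alternatives run on it, among them the fit with no filter (limma adjusted p = 0.00223 and 0.000558). The isthmus minus chief differences were 1.51 log2 by 1434376_at, with an interval of -0.53 to 3.54, and 1.25 by 1423760_at, with an interval of -1.17 to 3.68. Without chief replicate 3, the array with the highest fibroblast sum, they were 2.64 and 2.55 and were not called (limma adjusted p = 0.169 and 0.293, ranges 0.169 to 0.819 and 0.287 to 0.964). Without chief replicate 2 the difference by 1434376_at was 0.55, and without chief replicate 1 that by 1423760_at was 0.19, so that the size of both moved with single chief arrays. Leukocytes also carry Cd44, and their 7 markers summed to 6.38 to 7.12 log2 on the isthmus arrays, 7.33 to 8.69 on the parietal arrays and 6.48 to 9.46 on the chief arrays, the highest being chief replicate 3 with Ptprc, the pan-leukocyte phosphatase, at 8.80. The part of these cells in the Cd44 values was not tested. Leaving that array out drops all that sets the sample apart, so it cannot single out leukocytes. The remaining Cd44 probe sets were dim, 1452483_a_at at 0.09 to 8.41 log2 and 1443265_at at 0.59 to 7.23 over the 9 arrays.

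Gpx2, a glutathione peroxidase of the gut lining and a target of the oxidant-responsive factor Nrf2, was at 11.34, 10.82 and 11.69 log2 on the isthmus arrays, 11.70, 11.38 and 11.30 on the parietal arrays, and 10.16, 10.47 and 11.73 on the chief arrays. It lay above the array median on all 9 arrays, and each pair of groups overlapped. Isthmus and chief means differed by 0.50 log2 (interval -0.29 to 1.28, limma adjusted p = 0.549), and parietal and chief means by 0.67 (interval -0.11 to 1.46, limma adjusted p = 0.223). Without chief replicate 3 the parietal minus chief difference was 1.15 and was called (limma adjusted p = 0.0217), as it was with each array centred on its median (1.37, limma adjusted p = 0.00826, range 0.00826 to 0.547).

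Within the chief group, chief replicate 3 had the highest value of Wfdc2, Dmbt1, Olfm4, Cftr, Aqp5, Cd44 and Gpx2 by their brightest probe sets, and chief replicate 2 the lowest value of Cftr, Aqp5 and Cd44. Gast, the antral hormone gastrin, was at 11.38, 3.66 and 14.07 log2 on the isthmus arrays, 1.62, 6.76 and 1.48 on the parietal arrays, and 14.48, 3.65 and 13.84 on the chief arrays. Chief replicate 2 was below its median for Gast, and so was isthmus replicate 2. Isthmus replicate 2 was the lowest isthmus array for Wfdc2, Dmbt1, Gpx2, both tested Cd44 probe sets and Slc7a11 by 1420413_at, and the highest for Aqp5. The 7 antral and intestinal markers summed to 13.09 to 14.76 log2 on the isthmus arrays, 8.25 to 10.21 on the parietal arrays and 13.11 to 14.81 on the chief arrays, with Cdx1 and Cdx2 above the array median on none. The 3 mucous neck cell markers summed to 13.46 to 14.09, 11.56 to 12.81 and 13.68 to 14.80 in the same order of groups. The 4 cycling cell markers summed to 13.92 to 14.26 log2 on the isthmus arrays, 11.92 to 12.40 on the parietal arrays and 12.91 to 14.10 on the chief arrays. The 5 surface pit cell markers summed to 16.04 to 16.30 log2 on the isthmus arrays, 15.67 to 15.85 on the parietal arrays and 16.67 to 16.98 on the chief arrays. Of these pit markers 5 of 5 fell between parietal and chief arrays, where 11.2% of all tested probe sets fell. The sums of the antral and intestinal, neck, pit and cycling cell markers were thus lowest on the same arrays as most members. Not every marker in them was. Between parietal and chief arrays 3 of 4 tested antral and intestinal markers fell, but Gast was not called (limma adjusted p = 0.0836). Of the neck markers 2 of 3 fell and of the cycling markers 3 of 4, while Cym and Stmn1 were not called. The part of these cell types in the parietal differences was not tested.

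**Figure D3:**
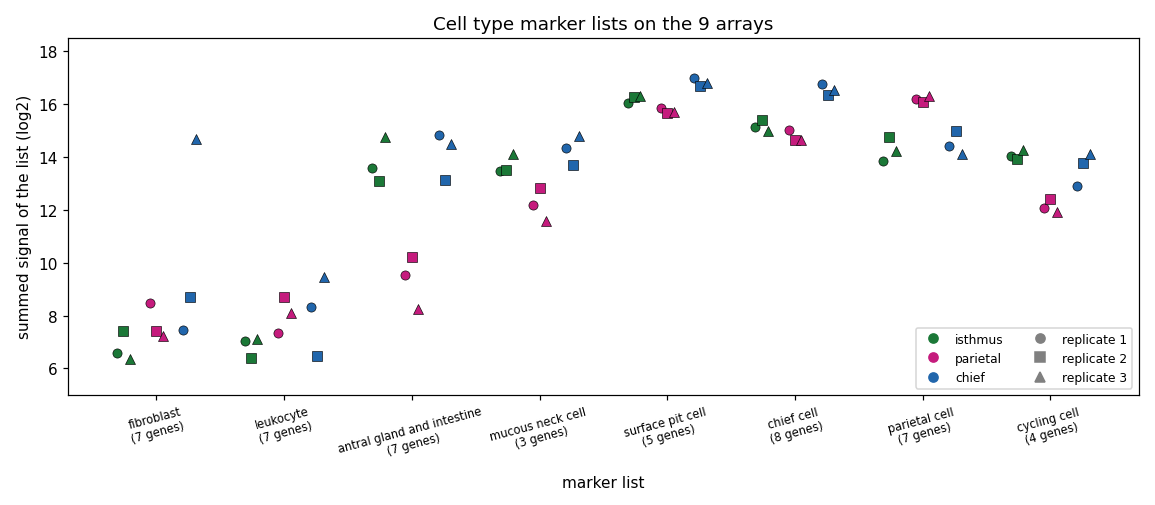
Summed signal of each cell type marker list in log2 units (vertical axis) on the isthmus, parietal and chief arrays, a point per array with its shape giving the replicate. The fibroblast sum of chief replicate 3, 14.66, stands above the other 8 arrays, and the antral, neck and cycling sums are lowest on the parietal arrays.

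Over the 9 arrays, log2 values of Cftr and Cd44 correlated at Pearson r = 0.97, of Cftr and Aqp5 at 0.95, and of Cd44 and Aqp5 at 0.89, each by the brightest probe set. Olfm4 correlated with Clu at -0.81 and with Gpx2 at 0.60. These values describe arrays that fall into 3 groups and share each group's differences. The 4 Clu probe sets correlated pairwise at 0.98 to 1, the Cftr pair at 0.88 and the brighter Cd44 pair at 0.91, while the Slc7a11 pair correlated at 0.25. Among 11045 other genes, the profile most like that of Clu was Leng8 (r = 0.988), of Wfdc2 Ttc39a (0.986), of Dmbt1 Sec16b (0.988) and of Olfm4 Zfp827 (0.969). That most like Cftr was Mpzl1 (0.984), like Aqp5 Rnf145 (0.986), like Cd44 Wars (0.983) and like Gpx2 Ncbp2 (0.943). The second in rank were Dapk1 (0.983), Gmds (0.984), Dpysl2 (0.986), Lrpprc (0.968), Hpse (0.970), Ddx58 (0.975), Tmod3 (0.974) and Antxr2 (0.915), in the order Clu, Wfdc2, Dmbt1, Olfm4, Cftr, Aqp5, Cd44 and Gpx2.

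The promoters of 3 members that were low on the parietal arrays and of Olfm4, which was high there, are printed to set these opposite patterns beside their sequence. Each is the 250 bases before the annotated start, 5′ to 3′, from RefSeq on the mouse build GRCm38.p6, with capitals marking a match on either strand to the GC box GGGCGG in Cftr, Aqp5 and Wfdc2 and to the TATA-type motif TATAA in Olfm4. They lie at chr6:18170437-18170686 for Cftr, chr15:99590778-99591027 for Aqp5, chr2:164562465-164562714 for Wfdc2 and chr14:80000052-80000301 for Olfm4, all on the plus strand.
Cftr: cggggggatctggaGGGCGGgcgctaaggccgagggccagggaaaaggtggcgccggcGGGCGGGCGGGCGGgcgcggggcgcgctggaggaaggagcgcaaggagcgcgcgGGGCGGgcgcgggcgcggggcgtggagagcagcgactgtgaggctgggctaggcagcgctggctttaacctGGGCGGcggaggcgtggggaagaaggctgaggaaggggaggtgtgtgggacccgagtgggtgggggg
Aqp5: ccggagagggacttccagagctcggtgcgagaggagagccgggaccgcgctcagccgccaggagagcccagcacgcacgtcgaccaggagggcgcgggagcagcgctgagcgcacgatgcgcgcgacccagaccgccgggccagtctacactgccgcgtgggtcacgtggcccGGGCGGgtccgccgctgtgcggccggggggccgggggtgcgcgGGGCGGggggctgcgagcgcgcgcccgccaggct
Wfdc2: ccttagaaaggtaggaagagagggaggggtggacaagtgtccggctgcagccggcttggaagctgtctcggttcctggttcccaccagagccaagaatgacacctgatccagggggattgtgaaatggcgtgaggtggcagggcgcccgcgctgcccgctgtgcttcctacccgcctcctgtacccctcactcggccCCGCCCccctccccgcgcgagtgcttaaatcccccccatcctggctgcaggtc
Olfm4: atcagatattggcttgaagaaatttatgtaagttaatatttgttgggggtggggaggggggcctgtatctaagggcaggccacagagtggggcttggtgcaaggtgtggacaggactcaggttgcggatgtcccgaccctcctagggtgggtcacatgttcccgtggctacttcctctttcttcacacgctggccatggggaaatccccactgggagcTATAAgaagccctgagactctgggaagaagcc

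The Cftr window held 6 GC boxes, some of them overlapping, the Aqp5 window 2 and the Wfdc2 window 1, and the Olfm4 window held 0. The TATA-type match of Olfm4 began 32 bases before the start, and the other 3 windows held 0. Of 32851 promoter windows of this length, 32.7% held a GC box and 22.8% a TATAA on either strand. G and C made up 76.4% of the Cftr window, 78.4% of Aqp5, 64.8% of Wfdc2, 56.4% of Cd44, 54.0% of Olfm4, 49.2% of Gpx2 and 43.2% of Slc7a11, against a median of 52.4%. Cftr, Aqp5, Wfdc2 and Cd44 each had a probe set called lower in the parietal than in the chief samples. Their windows held more G and C than those of Olfm4 and Gpx2. The Slc7a11 window held the least, and that gene was too dim to be tested in the filtered fit. A link between base composition and the parietal pattern was not tested. The Cd44 window, whose gene was low on the parietal arrays too, held neither motif, nor did those of Slc7a11 and Gpx2. Across the 7 member windows, 0 held TGANTCA, the AP-1 type motif, and 0 held TGACNNNGC, the antioxidant response type motif, which 6.7% and 10.2% of all windows held. A match is a description of letters and not a site of binding.

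Other genes tied to SPEM were taken from a list of 14, of which 12 had a probe set naming them alone and 10 were tested, each by its brightest probe set. Between isthmus and chief arrays 0 of the 10 passed, and 1 had an unadjusted p under 0.05, against 1.12% and 15.6% of all tested probe sets. Between parietal and chief arrays 7 fell and 1 rose, where 11.2% of all tested probe sets fell and 8.7% rose, with a median of -2.14 log2 against -0.13 over all tested probe sets. Pigr, the receptor that carries immunoglobulins across epithelia, fell at least 11.4-fold (limma adjusted p = 0.0158), and Gkn3, a gastrokine of mucous neck cells, at least 11.5-fold (limma adjusted p = 0.0189). Iqgap3, a scaffold protein of dividing cells, fell at least 4.50-fold (limma adjusted p = 0.00785), but it passed the filter through the Mist1+ arrays alone, so that a low parietal level was built into its selection. Il33, an alarmin cytokine, fell 9.58-fold (limma adjusted p = 0.000659). Tff2, the peptide that names SPEM, was at 13.32, 13.43 and 13.53 log2 on the isthmus arrays, 12, 12.52 and 11.41 on the parietal arrays, and 13.91, 13.47 and 14.29 on the chief arrays. It was thus bright in all groups, but 3.77-fold lower in the parietal than in the chief samples (limma adjusted p = 0.000153). The isthmus mean was 2.73-fold above the parietal mean (limma adjusted p = 0.000921). Mal2, a protein of apical transport, was the 1 that rose (0.89 log2, limma adjusted p = 0.0116). Between isthmus and parietal arrays 5 of the 10 rose and 0 fell, where 12.4% of all rose and 10.1% fell.

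Of 13 tested genes around xCT and glutathione, 2 rose and 1 fell between parietal and chief arrays, a share near the 19.9% called over all tested probe sets, with a median of 0.08 log2 against -0.13 over all. Gpx4, the peroxidase of membrane lipids, rose 2.84-fold (limma adjusted p = 0.00667) and Gpx1, the general cytosolic peroxidase, 1.42-fold (limma adjusted p = 0.0122), while Nqo1, a quinone reductase driven by Nrf2, was 3.07-fold lower (limma adjusted p = 2.06e-05). Between isthmus and chief arrays 0 of 13 passed and 6 had an unadjusted p under 0.05, against 1.12% and 15.6% of all tested probe sets. The median was 0.45 log2 against 0 over all. Slc3a2, the heavy chain that partners xCT, was at 10.77, 10.52 and 10.24 log2 on the isthmus arrays and 11.44, 11.22 and 11.41 on the chief arrays (limma adjusted p = 0.153). Gclc, the catalytic subunit of the first enzyme of glutathione synthesis, was at 12.22, 12.01 and 12.55 on the isthmus arrays and 11.62, 11.32 and 11.34 on the chief arrays (limma adjusted p = 0.0885). Neither pair of groups overlapped. Between isthmus and parietal arrays 3 rose and 3 fell, where 12.4% of all tested probe sets rose and 10.1% fell.

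Of 9 listed genes of gland fluid and ion transport 6 were tested. Between isthmus and chief arrays 0 passed and 1 had an unadjusted p under 0.05, against 1.12% and 15.6% of all tested probe sets. Between parietal and chief arrays 2 rose and 2 fell, where 8.7% of all tested probe sets rose and 11.2% fell. Kcnn4, a calcium-activated potassium channel, fell at least 30.1-fold (limma adjusted p = 0.00083), and Aqp3, a water and glycerol channel, at least 19.3-fold (limma adjusted p = 0.00055). Aqp4, the water channel of parietal cells, rose at least 19.6-fold (limma adjusted p = 0.000349), and Slc12a2, the basolateral sodium, potassium and chloride cotransporter, 1.63-fold (limma adjusted p = 0.00126). The aquaporins thus ran in opposite directions, Aqp5 and Aqp3 lower and Aqp4 higher in the parietal than in the chief samples.

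**Figure D4:**
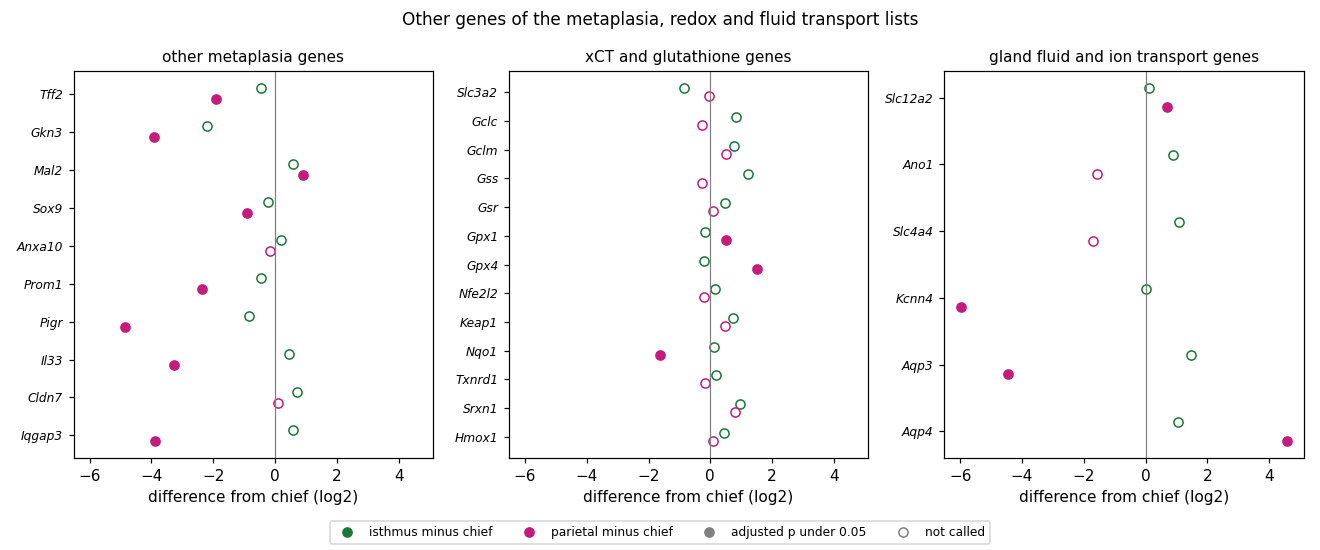
Difference from the chief group in log2 units (horizontal axis) for the tested genes of 3 lists, for the isthmus and the parietal groups. Filled points passed limma at an adjusted p under 0.05, and no isthmus point did, while Kcnn4, Pigr and Aqp3 are the parietal points farthest left and Aqp4 the farthest right.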

How the data were processed

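Total RNA was labelled with biotin and hybridised to 1 Affymetrix mouse array per sample, per the labels. The authors deposited a log2 signal for every probe set on each array, computed with MAS5 per the submitters' processing notes. The sources used here state neither its version nor the log step, and the lowest value is 0. Base 2 was settled from the values, which give a linear mean of 496.2 to 497.2 per array after the outer 2% on either side are dropped. No detection calls were used here.

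Gene names come from the platform's annotation, updated through Entrez identifiers in a RefSeq table (GRCm38.p6). Of 45037 probe sets, 34945 named 1 gene, 932 several and 9160 none, and 34741 matched the table. The 21393 single-gene probe sets above the array median on at least 3 arrays entered limma 3.58.1 under R 4.3.3 (lmFit, then eBayes with an intensity trend), in a fit of all 9 arrays with a mean per group and 6 residual degrees of freedom, two-sided, with Benjamini-Hochberg adjustment over all of them and calls at an adjusted p under 0.05. The script was tested on simulated data. Folds are lower bounds ("at least") where the dimmer group held an array under its median, which was then set to that median. The labels do not say whether samples came from separate animals, so p-values measure only the spread between these samples, and the number of arrays limits the precision. Groups and replicate numbers came from sample titles. The labels do not say that same-numbered arrays are paired, so the main fit had no block. Deviations from the group means correlated weakly between same-numbered arrays of different groups (r = -0.018 to 0.055 over 9 pairs).

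All member probe sets are given. Of other lists, up to 4 called genes with the largest differences are named. Tff2, Mal2, Slc3a2, Gclc for isthmus minus chief, and the marker genes given by name fall outside that rule and were chosen after their values were seen. Alternatives were the filter, a pseudocount, normalization, the unit of test, the samples fitted, the variance model, a replicate block and leaving out arrays. The 2 genes most like each member are by Pearson r. The members and lists were chosen with earlier results of these data known. List genes without a probe set of their own, and the promoters of Clu and Dmbt1, were not analysed here.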

Additional observations from a re-analysis of the deposited data

How the results depend on the processing

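The 13 tested member probe sets kept their direction and their side of the threshold in 230 of 250 values for isthmus minus chief, 237 of 250 for parietal minus chief and 245 of 250 for isthmus minus parietal, over the filter, scale, normalization, unit, variance, block and array alternatives. Signs turned when single arrays were left out, for differences near 0: Dmbt1 (-0.23 to 0.36) and Aqp5 (-0.31 to 1.13) for isthmus minus chief, and Gpx2 (-0.38 to 0.05) for isthmus minus parietal.

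For isthmus minus chief, where 0 member probe sets were called, 4 were with a pseudocount of 16 and 4 with 64, 3 with only these 2 groups, and 1 each with the filter at 6 arrays and with the brightest probe set per gene, all of Clu, and 0 to 3 when single arrays were left out. Of all probe sets, 240 were called, against 424 with a pseudocount of 64, 119 with no filter, 118 with probe sets averaged per gene, 116 with only these 2 groups, 33 without the intensity trend, 51 without chief replicate 3 and parietal replicate 1, and 28 to 233 without single arrays, among them 28 without chief replicate 1, 58 without isthmus replicate 1, 112 without isthmus replicate 2, 130 without chief replicate 3, 158 without parietal replicate 2 and 100 without parietal replicate 3. The causes were not tested.

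For parietal minus chief the 11 called member probe sets became 7 with the filter at 6 arrays, and 7 and 6 genes with the brightest probe set or the mean per gene, with 10 to 11 when single arrays were left out. For isthmus minus parietal the 11 became 7, 6 and 6 under the same settings, with 10 to 11. These settings hold fewer probe sets or genes by construction. All calls were 4265 and 4817 in these comparisons, 2675 and 3035 with the brightest probe set, 2455 and 2799 with the mean, 2476 for parietal minus chief without chief replicate 3 and parietal replicate 1, and 2993 to 4173 and 3532 to 5108 without single arrays.

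Centring each array on its median shifted all differences by 0.38, 0.69 and -0.32 log2 for isthmus minus chief, parietal minus chief and isthmus minus parietal, and moved the split of higher and lower calls to 276 and 60, 4911 and 1244, and 1810 and 3082, against 50 and 190, 1861 and 2404, and 2657 and 2160. Of the members, centring gave 2 higher and 9 lower calls for parietal minus chief. With the replicate block, 197, 4106 and 4639 probe sets and 0, 11 and 11 member probe sets were called in the same order, and no member call changed. Dim probe sets, below the array median, limit what can be said of Slc7a11 and of 2 Cd44 probe sets.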
